A study of Mus musculus with 2 samples.

Results

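The genes described here are 54 neuromodulator and neuropeptide receptor genes of the mouse, chosen by symbol from the 24411 genes of the count tables. They encode receptors for serotonin (9 genes), dopamine (3), noradrenaline and adrenaline (6), acetylcholine (5 muscarinic receptors and 6 nicotinic subunits), endocannabinoids, adenosine and histamine (3), somatostatin (4), neuropeptide Y (3), opioid peptides (4) and other neuropeptides (11). They were measured in the subventricular zone (SVZ) and the cortex of the mouse brain at embryonic day 16.5, by RNA-seq of tissue cut out by laser capture microdissection (LCM), with 1 library per area. Both areas were cut from fresh-frozen brain sections stained with haematoxylin and eosin, from animals for which the labels name no strain, mutation or treatment. How many embryos and fragments went into each library is not given in the sources used here. The study made the pair of libraries as a reference for a spatial barcoding method, and the question addressed here is which receptor genes were read in which area.

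With a single library per area there is no replicate check of any difference, no test was possible and no p-value is given. Values are read counts and counts scaled to 1000000 gene-assigned reads (CPM), so that a single read stood for 0.0194 CPM in the SVZ (51435667 gene reads in all) and for 0.0453 CPM in the cortex (22050693). A difference is a log2 ratio of CPM, SVZ over cortex and so positive when the SVZ was higher, followed in brackets by its exact 95% Clopper-Pearson interval. Intervals and floors cover counting error only, since the reads are PCR copies without molecular identifiers. For a gene with no read in one area the ratio is a bound, taken with 3 reads in place of 0. Such a bound leaves out the counting error of the other area. A limit given beside it is the interval end nearer to equality, which allows a smaller difference. Levels of genes of different length are compared as reads per kilobase of exon scaled to the same total (TPM). Shares of reads and summed CPM are not corrected for length, so longer genes weigh more in them.

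Neuromodulators act slowly and over a distance. Serotonin, noradrenaline, dopamine and acetylcholine reach the cortex through axons of neurons whose bodies lie elsewhere in the brain, whereas most neuropeptides are released by local neurons. Most of their receptors are single proteins that cross the membrane and switch on a G protein inside the cell: receptors of the Gi/o class lower cyclic AMP, those of the Gs class raise it, and those of the Gq/11 class activate phospholipase C. The nicotinic subunits and *Htr3a* are exceptions, since they build ion channels that open when the transmitter binds. In the embryonic cortex, progenitors divide in the germinal zone around the ventricle and their neurons migrate outward, so the areas compared here differ in how mature their cells are.

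The labelled areas were checked against marker genes. All 8 apical progenitor markers were higher in the SVZ (summed 6529 CPM against 130 in cortex), as were all 6 intermediate progenitor markers (1035 against 52.8 CPM). All 8 neuronal markers (904 against 5048 CPM) and all 6 deep-layer neuron markers (590 against 2673 CPM) were higher in cortex, and the neuronal gene *Nefl* had no read in the SVZ. In bulk samples such as these, fewer cells of a type and less RNA per cell cannot be told apart. The SVZ also held more choroid plexus RNA (249 against 2.09 CPM over 6 markers) and microglial RNA (50.3 against 5.53 CPM over 6 markers). The part of such mixtures in the receptor differences was not tested.

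The summed level of the receptor genes was higher in cortex. They took 23941 reads or 465 CPM in the SVZ and 39038 reads or 1770 CPM in cortex, and by length 478 and 1257 TPM. Single genes weighed heavily in these sums. The cannabinoid receptor gene *Cnr1* alone held 77.6% of the receptor reads in cortex, and the somatostatin receptor gene *Sstr2* held 40.0% in the SVZ. Without *Cnr1* the sums were 286 CPM in the SVZ and 396 CPM in cortex, a smaller difference in the same direction. Without both genes, which lay on opposite sides, they were 99.6 and 386 CPM.

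Of the 54 genes, 43 had at least 1 read in either library and 25 reached a mean of 1 CPM over both libraries. Among these 25, 13 were at least 4-fold higher in cortex, 4 were at least 4-fold higher in the SVZ and 8 lay less than 4-fold apart. The cortex share was 52.0% of the 25 receptor genes against 7.01% of all 12738 genes that pass the same minimum. The SVZ share was 16.0% against 10.2% of all genes. A low gene can reach the minimum through the area where it is high, so these shares over the 25 are a description and do not speak for all 54. The 54 genes were also chosen with earlier results of these data known, so the shares do not speak for receptor genes at large. Among 40 further genes of the same families 4 passed the minimum, 3 of them higher in the SVZ and 1 in cortex. The median log2 ratio over the 25 was -2.08 (quartiles -6.14 and -0.27), while that over all genes was 0.11 (quartiles -0.56 and 0.76). All 4 SVZ genes and 12 of the 13 cortex genes had intervals that lay wholly past 4-fold, the exception being *Oprl1*. Low counts spread ratios, so the shares were also taken by level: at a mean from 1 to under 10 CPM, 10 of 16 receptor genes (62.5%) were at least 4-fold apart in either direction against 31.3% of all genes in that range, and at 10 CPM or more 7 of 9 (77.8%) against 11.4%.

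**Figure D1:**
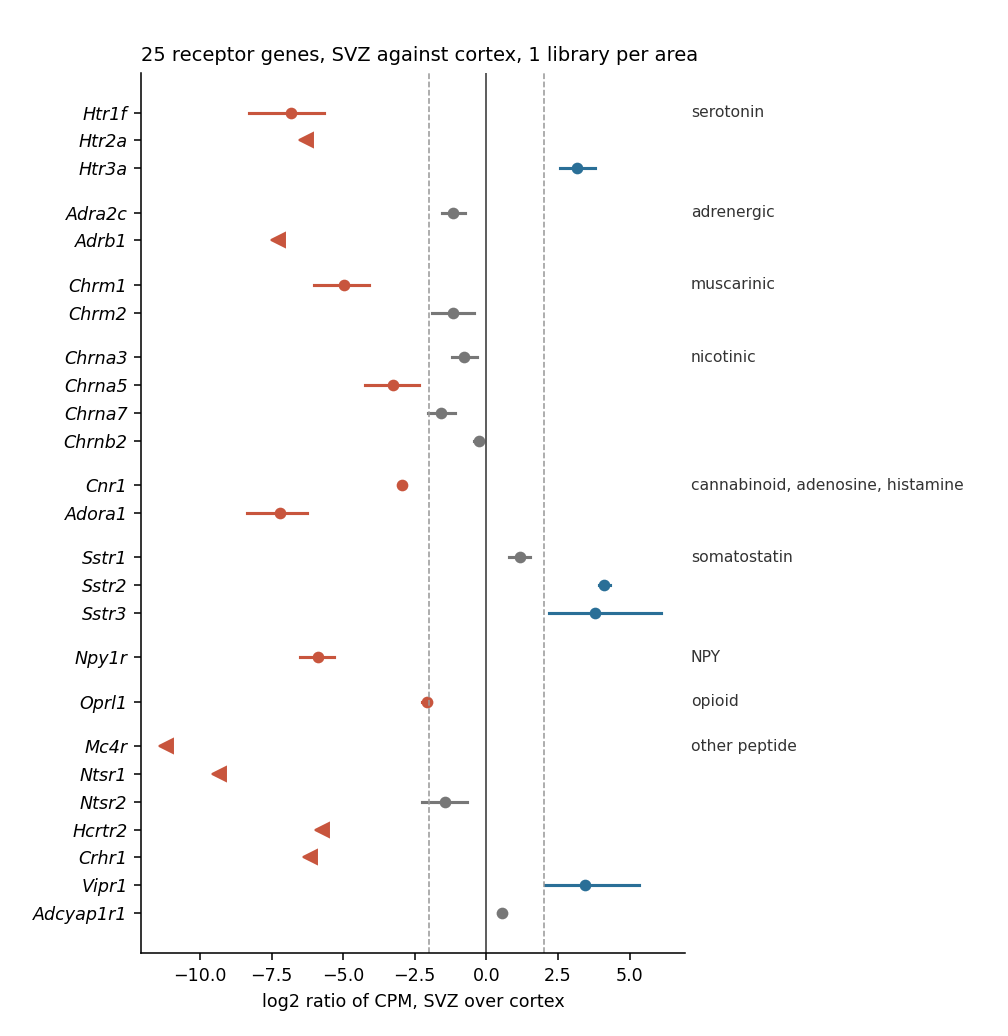
Log2 ratio of CPM, SVZ over cortex, for the 25 receptor genes above the minimum of 1 CPM, in groups by ligand. Circles are ratios with their 95% counting intervals, triangles are bounds for genes with no read in the SVZ, and dashed lines mark a 4-fold difference. The 13 genes past 4-fold toward the cortex (red) span 8 ligand groups, whereas the 4 toward the SVZ (blue) are *Htr3a*, *Sstr2*, *Sstr3* and *Vipr1*.

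Over all 54 genes, 32 had a read in the SVZ and 34 in cortex. Of the 25 genes above the minimum, which a gene without SVZ reads reaches only through its cortex level, 6 had no read in the SVZ although this library was the deeper one (24.0%, against 0.604% of all genes at this minimum): *Htr2a*, *Adrb1*, *Mc4r*, *Ntsr1*, *Hcrtr2* and *Crhr1*. None of the 25 lacked reads in cortex (0 of 25, against 1.47% of all genes), while *Htr1b*, *Htr2c*, *Htr7*, *Adra2b*, *Chrm4*, *Hrh3*, *Npy2r*, *Tacr1* and *Galr1*, all under the minimum, had SVZ reads and no cortex read. Nearest to the minimum, *Sstr3* (mean 1.00 CPM) and *Ntsr2* (1.02) lay just inside, and *Chrm3* (0.90) and *Npy5r* (0.88) just outside.

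**Figure D2:**
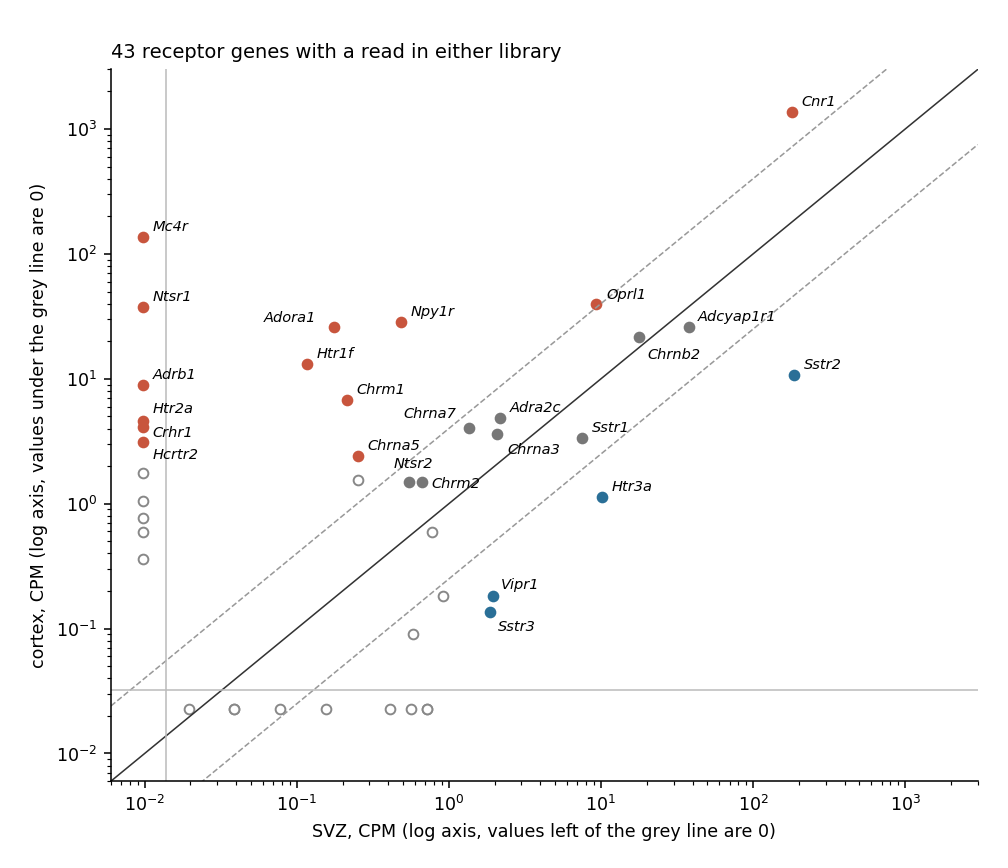
CPM in the SVZ (horizontal) against CPM in cortex (vertical), log axes, for the 43 receptor genes with a read in either library. Filled circles are the 25 genes above the minimum of 1 CPM and open circles those below it. The solid line marks equal CPM, the dashed lines a 4-fold difference, and values beyond the grey lines are 0. *Cnr1* lies above the upper dashed line (180 CPM in the SVZ and 1374 in cortex) and *Sstr2* below the lower one (186 and 10.8 CPM).

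The serotonin receptor genes split by area. *Htr3a* (chromosome 9, 48899213 to 48911099, GRCm38), the subunit that forms the serotonin-gated cation channel, had 522 SVZ reads (10.1 CPM) and 25 cortex reads (1.13 CPM), a log2 ratio of 3.16 [2.58, 3.80]. The opposite pattern was found for *Htr1f* (chromosome 16, 64924729 to 65105854), a Gi/o-coupled receptor, with 6 SVZ reads (0.12 CPM) and 291 cortex reads (13.2 CPM), a log2 ratio of -6.82 [-8.28, -5.68]. *Htr2a*, the Gq/11-coupled receptor on which psychedelic drugs act, had 0 SVZ reads and 102 cortex reads (4.63 CPM). Its bound was 79.3-fold higher in cortex (log2 limit -5.99), and its difference on the scale of log2(CPM + 1) was -2.49. Thus 1 gene made up most of the serotonin receptor reads in each library, and not the same one: *Htr3a* held 93.2% of them in the SVZ (exact 95% interval 90.8% to 95.2%) and *Htr1f* held 63.8% in cortex (59.2% to 68.2%).

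*Htr3a* is known from interneurons that arise outside the cortex and migrate into it, and from Cajal-Retzius cells. Of the 8 interneuron markers, 5 were higher in the SVZ and 3 in cortex, with log2 ratios from 1.17 (*Dlx1*) and 0.82 (*Dlx5*) over 0.38 (*Gad2*) and -0.29 (*Lhx6*) to -4.73 (*Npy*). The Cajal-Retzius markers summed to 2.64 CPM in the SVZ and 28.9 CPM in cortex, with *Reln* at -3.49 and with *Lhx1* and *Lhx5* at 0 in both. The part of either cell type in the *Htr3a* difference was not tested.

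The remaining serotonin receptor genes stayed under the minimum. *Htr1d* had 0 SVZ reads and 17 cortex reads, *Htr4* had 0 and 13, and *Htr1a*, the Gi/o-coupled receptor that is widespread in the adult cortex, had 0 and 8. *Htr2c*, a receptor known for its high level in the choroid plexus, had 29 SVZ reads and 0 cortex reads. It lay on the side of the choroid plexus markers that were read. Among these *Ttr* had 12363 SVZ reads and 16 cortex reads, and *Folr1*, *Clic6* and *Otx2* had none in cortex. *Kcnj13* differed less, by under 4-fold (184 and 30 reads), and held 65.2% of the choroid plexus marker reads in cortex. *Kl* had none in either library. The part of choroid plexus RNA in the *Htr2c* reads was not tested. *Htr1b* (1 and 0 reads) and *Htr7* (2 and 0) were at or below the floor of 3 reads in both libraries.

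The catecholamine receptor genes of the set were low, while *Drd1*, which is not in the set, had 17.2 CPM in cortex and no SVZ read. *Adrb1*, the Gs-coupled beta-1 adrenergic receptor (chromosome 19, 56722199 to 56733113), had no SVZ read and 198 cortex reads (8.98 CPM). Its bound was 154-fold higher in cortex (log2 limit -6.95). *Adra2c*, a Gi/o-coupled alpha-2 receptor, was read at similar counts in both libraries, 112 and 107 reads, which at the different depths made 2.18 SVZ CPM and 4.85 cortex CPM, a log2 ratio of -1.16 [-1.55, -0.76]. Its paralog *Adra2b* had 37 SVZ reads and 0 cortex reads. Of the 3 dopamine receptor genes of the set only *Drd4* was read, with 40 SVZ reads (0.78 CPM) and 13 cortex reads (0.59 CPM), and the interval of its log2 ratio, 0.40 [-0.53, 1.43], included equality. *Drd2*, *Drd5*, *Adra1a*, *Adra1b* and *Adra2a* had no read in either library.

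In the unstranded counts the muscarinic acetylcholine receptor genes were lower in the SVZ, with a sum of 1.17 CPM against 9.80 CPM. *Chrm1*, the Gq/11-coupled M1 receptor (chromosome 19, 8663789 to 8683587), had 11 SVZ reads (0.21 CPM) and 149 cortex reads (6.76 CPM), a log2 ratio of -4.98 [-6.01, -4.10]. *Chrm2*, the Gi/o-coupled M2 receptor, differed less, with 34 SVZ reads (0.66 CPM) and 33 cortex reads (1.50 CPM), a log2 ratio of -1.18 [-1.91, -0.44]. *Chrm3* had 13 and 34 reads and *Chrm5* none. *Chrm4*, the M4 receptor, had 2 and 0 reads, a count that leaves out any read that also overlaps a gene on the other strand. The class result depends on how such reads are counted. The sum of the stranded counts takes each of them for both genes, here *Chrm4* and *Mdk* on the other strand. It therefore gives no level of *Chrm4* itself. With this sum the class median was -1.23 in place of -3.08 and *Chrm4* was past 4-fold toward the SVZ. The share of *Chrm2* in the muscarinic SVZ reads was then 6.34% in place of 56.7%.

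The nicotinic subunit genes above the minimum were all higher in cortex, 3 of 4 by less than 4-fold. *Chrnb2*, the beta subunit of the main brain nicotinic receptor, had 917 SVZ reads (17.8 CPM) and 473 cortex reads (21.5 CPM), a log2 ratio of -0.27 [-0.43, -0.10]. It held 77.4% of the nicotinic reads in the SVZ and 67.6% in cortex. Per kilobase of exon the shares of *Chrnb2* were 64.1% and 51.4%. *Chrna4*, its usual alpha partner, was under the minimum and on the other side, with 47 and 4 reads (0.91 and 0.18 CPM), a log2 ratio of 2.33 [0.88, 4.27].

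The alpha subunits above the minimum lay toward the cortex to different degrees. *Chrna7*, which forms channels of its own, had 70 SVZ reads (1.36 CPM) and 89 cortex reads (4.04 CPM), a log2 ratio of -1.57 [-2.04, -1.10]. *Chrna5*, an accessory subunit, had 13 SVZ reads (0.25 CPM) and 53 cortex reads (2.40 CPM), a log2 ratio of -3.25 [-4.25, -2.35], but on the scale of log2(CPM + 1) its difference was -1.44. Its neighbour *Chrna3* had 107 SVZ reads (2.08 CPM) and 79 cortex reads (3.58 CPM), a log2 ratio of -0.78 [-1.22, -0.35]. Both genes stand in one cluster on chromosome 9, on opposite strands with starts 45.7 kb apart, yet the interval of *Chrna5* does not reach that of *Chrna3*. *Chrnb1*, the beta subunit of the muscle receptor, had 30 and 2 reads.

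*Cnr1* (chromosome 4, 33924593 to 33948831) encodes the main cannabinoid receptor of the brain, a Gi/o-coupled receptor found on axons and axon terminals. It had 9239 SVZ reads (180 CPM) and 30297 cortex reads (1374 CPM), the highest level of the receptor genes in cortex, where it reached 820 TPM. Its log2 ratio was -2.94 [-2.97, -2.90], or 7.65-fold higher in cortex. This was the narrowest counting interval of the receptor genes, and it says nothing of variation between samples. Although higher in cortex, *Cnr1* was second only to *Sstr2* in the SVZ by length, at 96.8 TPM against 302 TPM.

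*Adora1* (chromosome 1, 134199223 to 134235431), the Gi/o-coupled adenosine A1 receptor, differed more steeply. It had 9 SVZ reads (0.17 CPM) and 569 cortex reads (25.8 CPM), a log2 ratio of -7.20 [-8.34, -6.27]. *Hrh3*, the histamine H3 receptor, had 8 and 0 reads.

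Somatostatin receptors were the group with the clearest SVZ side. These Gi/o-coupled receptors bind the peptide of *Sst*-expressing interneurons. Summed over the 4 genes the level was 196 CPM in the SVZ and 14.3 CPM in cortex, 13.7-fold higher in the SVZ. *Sstr2* (chromosome 11, 113619342 to 113626028) stood at 9579 SVZ reads (186 CPM) and 238 cortex reads (10.8 CPM), a log2 ratio of 4.11 [3.92, 4.30], and held 95.2% of the somatostatin receptor reads in the SVZ. *Sstr3* followed in the same direction with 96 and 3 reads (1.87 and 0.14 CPM, log2 ratio 3.78 [2.19, 6.08]), a ratio that rests on 3 cortex reads. It fell under the minimum of 1 CPM with TMM, DESeq2 or upper-quartile scaling and with the stranded counts (means of 0.97 to 0.98 CPM), and its difference on the scale of log2(CPM + 1) was 1.34. *Sstr1* lay less than 4-fold apart, with 385 SVZ reads (7.49 CPM) and 74 cortex reads (3.36 CPM), a log2 ratio of 1.16 [0.80, 1.54], and *Sstr4* had no read.

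The promoter window of *Sstr2* is shown because the gene leads the SVZ side and because its window, alone among those of the 46 receptor genes with one, holds the letters of a cyclic AMP response element. Windows run from 250 bases before to 50 bases after a RefSeq gene start (GRCm38.p6), and capitals mark CpG dinucleotides. That of *Sstr2* (chr11:113619077-113619376, plus strand, 66.3% GC) holds 27 CpG dinucleotides, and 15.5% of all 32851 windows hold as many or more.
Sstr2: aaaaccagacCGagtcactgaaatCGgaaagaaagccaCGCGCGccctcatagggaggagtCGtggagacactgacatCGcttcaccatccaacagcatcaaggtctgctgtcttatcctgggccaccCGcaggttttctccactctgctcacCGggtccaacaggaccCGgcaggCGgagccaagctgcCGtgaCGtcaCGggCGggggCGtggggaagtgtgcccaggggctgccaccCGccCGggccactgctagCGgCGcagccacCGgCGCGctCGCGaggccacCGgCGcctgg

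The cyclic AMP response element searched was TGACGTCA, which reads the same on both strands, and 1.79% of all windows hold it. The second motif searched was the E-box CAGATG on either strand, bound by proneural factors, which 17.2% of all windows hold and which was found for 3 receptor genes, *Oprl1*, *Sstr3* and *Tacr1*. No receptor gene was found with both motifs. A match is a run of letters and says nothing of binding. Over the 57 windows of the 46 receptor genes the median was 15 CpG dinucleotides, against 7 over all windows.

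The receptors for neuropeptide Y were read mostly in cortex, apart from *Npy2r*. *Npy1r*, the Gi/o-coupled Y1 receptor, had 25 SVZ reads (0.49 CPM) and 633 cortex reads (28.7 CPM), a log2 ratio of -5.88 [-6.52, -5.31]. *Npy5r*, the Y5 receptor, had 0 SVZ reads and 39 cortex reads (1.77 CPM), a bound of -4.92. *Npy2r*, the Y2 receptor, had the reverse, 37 SVZ reads (0.72 CPM) and 0 cortex reads. The ligand gene *Npy* itself had 733 SVZ reads (14.3 CPM) and 8355 cortex reads (379 CPM), a log2 ratio of -4.73.

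*Npy1r* and *Npy5r* are neighbours on chromosome 8, transcribed in opposite directions from starts 9.06 kb apart, and their promoter windows are printed since the genes lay on the same side. The *Npy1r* window (chr8:66697172-66697471, plus strand) has 10 CpG dinucleotides at 51.7% GC, and that of *Npy5r* (chr8:66688045-66688344, minus strand) has 15 at 61.7% GC. As many or more CpG dinucleotides were found in 43.5% and 34.6% of all windows.
Npy1r: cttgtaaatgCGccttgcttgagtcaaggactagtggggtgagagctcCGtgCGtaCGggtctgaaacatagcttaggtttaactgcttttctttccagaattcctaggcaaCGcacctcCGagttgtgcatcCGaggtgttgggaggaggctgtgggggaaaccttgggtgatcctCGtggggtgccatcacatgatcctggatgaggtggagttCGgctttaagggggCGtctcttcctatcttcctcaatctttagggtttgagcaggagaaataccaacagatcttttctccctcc
Npy5r: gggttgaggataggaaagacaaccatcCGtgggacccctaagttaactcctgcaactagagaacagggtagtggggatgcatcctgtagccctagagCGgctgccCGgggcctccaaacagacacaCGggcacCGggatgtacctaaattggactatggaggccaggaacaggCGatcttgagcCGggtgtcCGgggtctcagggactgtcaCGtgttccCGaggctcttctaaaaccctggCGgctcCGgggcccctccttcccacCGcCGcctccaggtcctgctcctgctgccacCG

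The opioid group came down to a single gene. *Oprm1*, *Oprd1* and *Oprk1*, the mu, delta and kappa opioid receptors, had no read in either library. *Oprl1*, the Gi/o-coupled receptor for nociceptin, had 480 SVZ reads (9.33 CPM) and 870 cortex reads (39.5 CPM), a log2 ratio of -2.08 [-2.24, -1.92]. Its interval crossed the 4-fold line, and its difference was -1.97 on the scale of log2(CPM + 1). *Pnoc*, which encodes nociceptin, had 87 and 17 reads, a log2 ratio of 1.13 in the direction opposite to its receptor.

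Among the other peptide receptors the cortex side held the Gq/11-coupled neurotensin receptor *Ntsr1*, a marker of corticothalamic neurons in layer 6, and the Gs-coupled melanocortin receptor *Mc4r*. *Ntsr1* had 0 SVZ reads and 835 cortex reads (37.9 CPM), a bound of 649-fold higher in cortex (log2 limit -9.04). *Mc4r* had 0 SVZ reads and 2999 cortex reads (136 CPM), a bound of 2332-fold higher (log2 limit -10.89). At 187 TPM *Mc4r* stood second to *Cnr1* in cortex. The bounds of *Mc4r* and *Ntsr1* were the largest of the 25 genes. The deep-layer neuron markers lay on the same side, at 590 SVZ CPM and 2673 cortex CPM, and each of the 6 had SVZ reads. The part of deep-layer neurons in the *Ntsr1* and *Mc4r* differences was not tested.

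The *Ntsr1* promoter window is printed because the gene had no SVZ read in the deeper library. It (chr2:180499726-180500025, plus strand) has 23 CpG dinucleotides at 68% GC, and 21.5% of all windows hold as many or more.
Ntsr1: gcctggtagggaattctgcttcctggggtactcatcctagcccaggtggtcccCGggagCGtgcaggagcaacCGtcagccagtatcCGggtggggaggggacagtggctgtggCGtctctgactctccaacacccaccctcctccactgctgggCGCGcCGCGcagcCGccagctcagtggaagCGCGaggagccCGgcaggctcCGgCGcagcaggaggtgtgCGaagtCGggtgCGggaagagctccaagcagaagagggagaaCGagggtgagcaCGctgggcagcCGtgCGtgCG

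A pair of stress and arousal receptors was also read in cortex alone. *Crhr1*, the Gs-coupled receptor for corticotropin-releasing hormone, had 0 SVZ reads and 91 cortex reads (4.13 CPM), a bound of 70.8-fold (log2 limit -5.82). *Hcrtr2*, the Gq/11-coupled orexin receptor 2, had 0 and 69 reads (3.13 cortex CPM), a bound of 53.7-fold (log2 limit -5.41). On the scale of log2(CPM + 1) the differences were -2.36 for *Crhr1* and -2.05 for *Hcrtr2*. The gene for the *Crhr1* ligand was on the other side: *Crh* had 160 SVZ reads (3.11 CPM) and 0 cortex reads, a log2 ratio of at least 4.52. The orexin precursor gene *Hcrt* had no read in either.

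Above the minimum, the receptors for the related peptides VIP and PACAP were the peptide receptors on the SVZ side apart from those for somatostatin. *Vipr1* (Gs-coupled) had 101 SVZ reads (1.96 CPM) and 4 cortex reads (0.18 CPM), a log2 ratio of 3.44 [2.04, 5.34] that rests on 4 cortex reads and was 1.33 on the scale of log2(CPM + 1). *Adcyap1r1*, the PACAP receptor (Gs-coupled), was plentiful in both, with 1936 SVZ reads (37.6 CPM) and 571 cortex reads (25.9 CPM), a log2 ratio of 0.54 [0.40, 0.68]. The PACAP gene *Adcyap1* had 22 and 144 reads, a log2 ratio of -3.93, and *Vip* had none.

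The last of the peptide receptors were scarce. *Ntsr2*, the second neurotensin receptor, had 28 SVZ reads (0.54 CPM) and 33 cortex reads (1.50 CPM), a log2 ratio of -1.46 [-2.24, -0.69], well short of the bound of -9.34 for *Ntsr1*. *Tacr3*, the neurokinin B receptor, had 0 and 23 reads, *Tacr1*, the substance P receptor, had 4 and 0, and *Galr1*, the galanin receptor 1, had 21 and 0. *Cckbr*, the cholecystokinin receptor of the brain, had none.

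Grouped by the G protein they use, the receptors of the Gq/11 class had the lowest summed CPM in the SVZ relative to the cortex library. Its 13 genes summed to 1.65 CPM (85 reads) in the SVZ and 56.5 CPM (1245 reads) in cortex, 34.2-fold higher, with *Ntsr1* holding 67.1% of the cortex reads. Of its 5 genes above the minimum, 4 were at least 4-fold higher in cortex and none in the SVZ, at a median log2 ratio of -5.75. The shares of all genes above the minimum were 7.01% toward the cortex and 10.2% toward the SVZ. The Gs class (5 of 8 genes above the minimum, 3 toward the cortex and 1 toward the SVZ) had a lower median of -6.14, with sums of 39.6 and 176 CPM. Both medians are bounds, that of *Hcrtr2* for Gq/11 and that of *Crhr1* for Gs. Both genes had no SVZ read and reached the minimum through cortex, so the medians do not rank the classes.

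The Gi/o class held both directions. Of its 10 genes above the minimum (of 26), 5 were at least 4-fold higher in cortex and 2 in the SVZ (7.01% and 10.2% of all genes). The median was -1.63 and the sums were 391 and 1505 CPM. Among the ion channel subunits, *Htr3a* was past 4-fold toward the SVZ and *Chrna5* toward the cortex, and the sum over the 7 genes was 33.2 CPM in the SVZ and 32.9 CPM in cortex. With *Htr3a* set apart, the nicotinic subunits summed to 23.0 and 31.7 CPM.

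**Figure D3:**
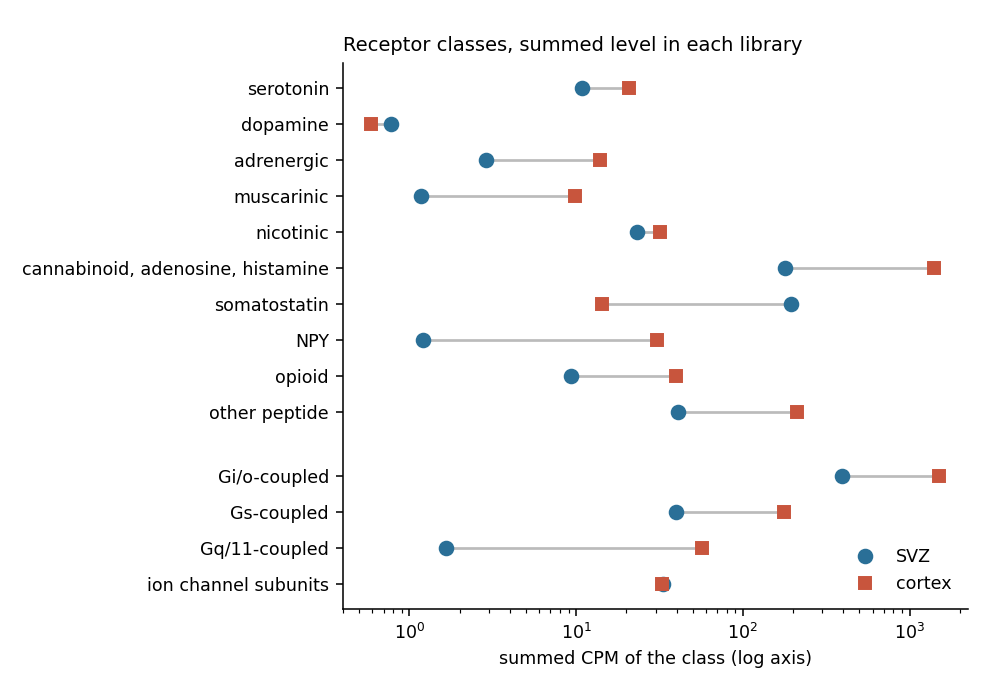
Summed CPM of each receptor class in the SVZ (circles) and the cortex library (squares), log axis, with the ligand classes above and the coupling classes below. The somatostatin receptors are the class furthest toward the SVZ (196 against 14.3 CPM), and the Gq/11-coupled receptors (1.65 against 56.5 CPM) the coupling class furthest toward the cortex.

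The 11 genes without a read in either library were *Drd2*, *Drd5*, *Adra1a*, *Adra1b*, *Adra2a*, *Chrm5*, *Sstr4*, *Oprk1*, *Oprm1*, *Oprd1* and *Cckbr*. They were 20.4% of the 54 genes, against 31.6% of all genes in the tables. The 54 genes were chosen with earlier results of these data known, so their share does not speak for receptor genes at large. Of 40 further genes of the same families, 22 had no read in either library. With the floor of 3 reads, 0 leaves room for levels of 0.0583 CPM in the SVZ and 0.136 CPM in cortex by counting error alone. The reads are PCR copies, so how many distinct molecules were sampled is not known, and true levels may be higher than these floors.

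The rest of the receptor families, 40 further genes in the tables, added little: 22 had no read in either library and 4 passed the minimum, of which 1 was at least 4-fold apart. This was *Drd1*, the main Gs-coupled dopamine receptor, with 0 SVZ reads and 380 cortex reads (17.2 CPM), a log2 bound of -8.21 (limit -7.90). Of all genes above the minimum, 7.01% were past 4-fold toward the cortex and 10.2% toward the SVZ. *Adora2a* (1.70) and *Vipr2* (0.70) were on the SVZ side. Among adenosine receptors the Gs-coupled *Adora2a* therefore lay opposite to *Adora1*.

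Of 18 neuropeptide ligand genes, 10 passed the minimum, with 4 at least 4-fold higher in cortex and 1 in the SVZ, and a median log2 ratio of -1.16. For this list and the next, the shares of all genes were 7.01% toward the cortex and 10.2% toward the SVZ. Beside *Npy* and *Adcyap1* the galanin gene *Gal* was far toward the cortex (11 and 65 reads, log2 ratio -3.78), and *Pomc*, the source of the *Mc4r* agonist alpha-MSH, lay toward the SVZ (219 and 50 reads, 0.91). The genes that make, move and break down the transmitters had no common side: 13 of 26 passed the minimum, with 3 at least 4-fold higher in the SVZ, 2 in cortex and a median of 0.11. The endocannabinoid enzymes were divided. *Napepld*, which makes anandamide, was on the SVZ side (21.8 and 2.58 CPM, log2 ratio 3.07), while *Mgll*, which breaks down the endocannabinoid 2-AG (1.61 and 38.2 CPM, -4.57), *Faah*, which breaks down anandamide (-2.69), and *Dagla*, which makes 2-AG (-1.70), were on the side of *Cnr1*. The monoamine oxidase gene *Maob* (2.03) and the histamine methyltransferase gene *Hnmt* (2.50) were higher in the SVZ, and the serotonin and acetylcholine synthesis genes *Tph2* and *Chat* had no read.

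Inside the cell, the signalling partners were more evenly shared than the receptors. All 22 G protein subunit genes passed the minimum, 3 were at least 4-fold higher in cortex and none in the SVZ, and the median was -0.55. Of all genes above the minimum, 7.01% were past 4-fold toward the cortex and 10.2% toward the SVZ. *Gng4* (-4.45), *Gnal* (-3.71) and *Gnaz* (-2.19) led the cortex side, *Gng5* (1.97), *Gnai2* (1.68) and *Gng12* (1.34) the SVZ side. Among cyclases, phospholipases and G protein-gated potassium channels (11 of 15), 4 were at least 4-fold higher in cortex and none in the SVZ, at a median of -1.26. The calmodulin-stimulated adenylyl cyclase genes *Adcy1* (72 and 3557 reads, -6.85) and *Adcy8* (0 and 116 reads, bound -6.49, limit -6.17) differed most. The channel gene *Kcnj3* was at -2.87. The phospholipase C genes *Plcb1* (1.11), *Plcb3* (1.22) and *Plcb4* (0.78) were higher in the SVZ, opposite to the Gq/11-coupled receptors.

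Of the genes that end receptor signalling (RGS proteins, receptor kinases and arrestins, 21 of 23), 5 were at least 4-fold higher in cortex and 1 in the SVZ, with a median of -0.94. The shares of all genes were 7.01% toward the cortex and 10.2% toward the SVZ. In lists this short a single gene past 4-fold is a description only. *Rgs7* (-4.86), *Rgs6* (-4.48) and *Rgs4* (-3.27) led one side and *Rgs20* (2.99), *Grk4* (1.91) and *Rgs3* (1.06) the other. The nicotinic chaperone and Ly6 genes (8 of 9) had 1 gene past 4-fold in each direction and a median of -0.15. *Nrn1* (2.85) and *Lypd6* (1.42) were higher in the SVZ, and *Ly6h*, whose product limits nicotinic receptors at the surface (-3.31), *Tmem35* (-1.35) and *Ric3* (-0.54) in cortex.

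**Figure D4:**
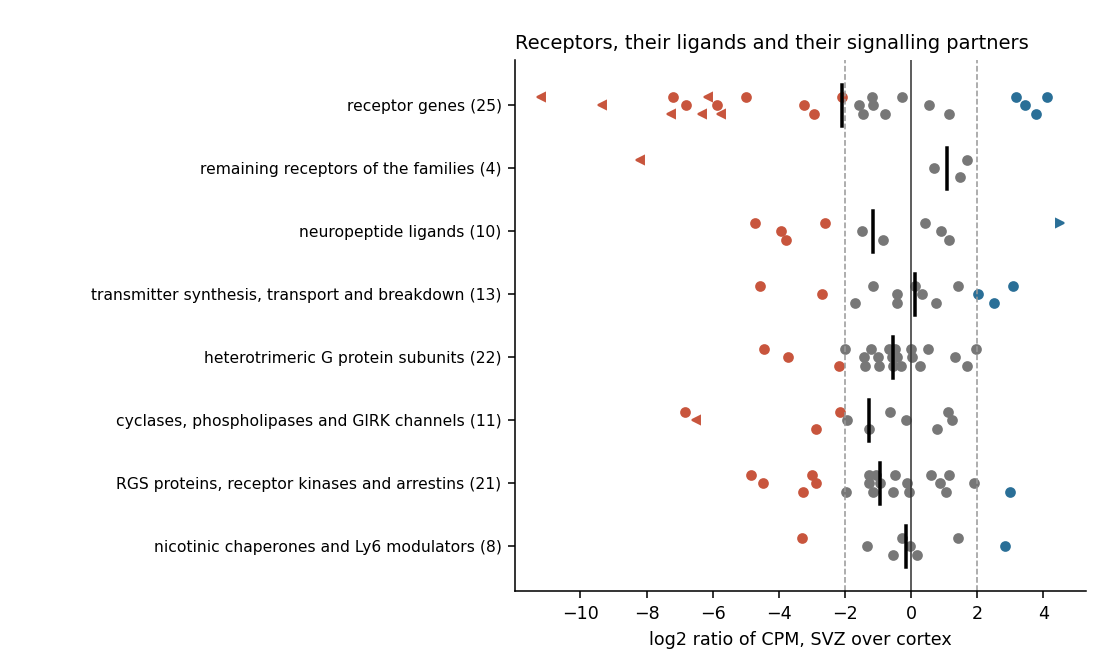
Log2 ratio of CPM, SVZ over cortex, for the 25 receptor genes (top) and for the genes of 7 companion lists, above the same minimum and with the number of genes in brackets. Black bars are medians, triangles are bounds, dashed lines mark a 4-fold difference. The receptor genes have the lowest median (-2.08), and the remaining receptors of the families (1.08, 4 genes) the highest.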

How the data were processed

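The 2 LCM libraries were deposited by the authors as counts, whole reads per gene and not normalized. Per the study's methods, adapters were removed with cutadapt 4.1 and read 1 was mapped to mm10 with STAR 2.7.9a, which counted reads per gene. Removal of duplicates is not stated. Reads that overlap several genes or map to several places enter no gene count, and rows that name no gene, with 41.0% (SVZ) and 40.9% (cortex) of the reads, were left out. The kit does not mark strand, so the unstranded column was used. A further deposited table with the authors' CPM, fold change and log10 values was not used.

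CPM was computed on the gene totals. Ratios, floors and Clopper-Pearson intervals are as stated above, and genes counted as apart had a ratio of at least 4 and a mean of at least 1 CPM. Exon lengths and positions came from GENCODE M21 (GRCm38), which matched all 54 genes by symbol, and promoter windows from RefSeq (GRCm38.p6). The receptor genes and all lists were chosen with earlier results of these data known. All receptor genes are named, and of each companion list up to 3 genes per direction, ranked by the interval end closest to 0. A further gene that this rule names is not reported here. Others (*Hcrt*, *Vip*, *Tph2*, *Chat* and single markers) were named after their values were seen. Alternatives were scaling by upper quartile or TMM (both edgeR 4.0.16) or by size factors (DESeq2 1.42.0), library totals that omit the 10 most counted genes, stranded counts, thinning of the SVZ library to the cortex total, other minimums and thresholds, a pseudocount of 1 CPM, the mean, and TPM. Scripts ran in Python 3.11.15 (pandas 2.3.3, scipy 1.17.1, matplotlib 3.10.9, numpy 2.4.6) and R 4.3.3. The procedure was tested on simulated data.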

Additional observations from a re-analysis of the deposited data

Results flagged for a closer look

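*Chrm4*, the muscarinic M4 receptor, had 2 SVZ reads and 0 cortex reads in the unstranded counts used above, but 493 SVZ reads and 15 cortex reads in the sum of the stranded counts, which above serve only as an alternative setting. The gain of 491 and 15 reads was exactly that of *Mdk*, a growth factor gene on the opposite strand next to it, which went from 54106 to 54597 SVZ reads and from 1143 to 1158 cortex reads. The sum counts a read of the overlap once for each gene, so equal gains follow by construction. Reads of both genes cannot be told apart with this kit. *Adora1*, named after its values were seen, gained 8 SVZ reads and 121 cortex reads in the same way, exactly as *Mybph* on the opposite strand, which had no unstranded read. With the stranded counts *Adora1* had 17 and 690 reads.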

How the results depend on the processing

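No paired analysis was possible because there is only 1 library of either area, which also means that none could be left out. The 13 receptor genes at least 4-fold higher in cortex and the 4 in the SVZ became 6 and 1 at a minimum of 10 CPM, and 19 and 9 without a minimum, where *Htr2c*, *Adra2b*, *Chrna4*, *Chrnb1* and *Npy2r* joined the SVZ side. With a pseudocount of 1 CPM, an alternative for these counts chosen after seeing the data, they were 11 and 2. The remaining settings left both counts within 1.5 times. The summed receptor level was 451, 451 and 450 CPM in the SVZ and 1828, 1829 and 1832 CPM in cortex with TMM, DESeq2 and upper-quartile scaling, 495 and 1925 CPM on totals without the 10 most counted genes, 1739 cortex CPM with stranded counts, and 478 and 1257 TPM. Upper-quartile scaling shifted the median of all genes by -0.10.

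The median of the receptor genes was -2.60, -2.60 and -2.61 under the 3 scalings, which leave out *Sstr3*, -2.51 with stranded counts, -2.50 after thinning, -1.57 without a minimum, -2.94 at 10 CPM, -1.44 with a pseudocount of 1 CPM and -2.78 as a mean. That of the Gi/o class was -2.17, -2.17 and -2.18 under the scalings, -2.28 after thinning, -1.17 without a minimum and -2.94 at 10 CPM. The Gs class gave -4.92, -4.74 and -5.32 for the last 3 settings, the Gq/11 class -4.52 and -4.57 for thinning and no minimum, and the ion channel subunits -0.27 without a minimum and at 10 CPM. Thinning raises bounds by construction. Medians that changed sign were those of the ligand genes (0.10 without a minimum, but -3.10 at 10 CPM), the synthesis and transport genes (-0.15 without a minimum and at 10 CPM) and the nicotinic chaperones (0.077 with stranded counts). The G protein subunits gave -0.65 under the 3 scalings, and the cyclases, phospholipases and channels -1.64 on totals without the most counted genes, -0.96 without a minimum and -2.15 at 10 CPM. No ratio of the 25 receptor genes changed sign. With a pseudocount of 1 CPM *Chrna5*, *Oprl1*, *Sstr3* and *Vipr1* lay under 4-fold. Among the smaller classes 56 of the counts moved by over 1.5 times or to or from 0, and 364 did not. The latter include counts that were 0 under both settings, as for the dopamine receptors, so the tally is no measure of stability. Read counts of PCR copies limit what can be said of the 11 genes without a read and of ratios on fewer than 10 reads.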
